A study of Homo sapiens with 6 samples.

Results

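The genes described here encode voltage-gated sodium and calcium channels and the potassium channels, with their auxiliary subunits. They were chosen by name: the symbols KCN, SCN and CACN followed by the letters and numbers of a channel subunit matched 135 of the 58884 genes in the deposited table. By the same symbols the 135 genes fell into 95 potassium, 26 calcium and 14 sodium channel genes, and further into 12 classes by role. RNA was sequenced from DBTRG, an established human glioblastoma line of wild-type genotype, after 5 days in a soft gel (3D) or on a rigid dish (2D), with 3 libraries in each group. The labels give no other treatment, and both groups are the same line, so culture form and stiffness cannot be told apart. They do not say whether the libraries of a group came from separate cultures, so the spread behind each p-value may be technical.

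Voltage-gated channels open when the membrane potential changes and let sodium, calcium or potassium ions cross. The pore is formed by large alpha subunits, while smaller auxiliary subunits (beta, alpha2delta, gamma and others) set how many channels reach the membrane and how fast they open and close. Potassium channels of the inward rectifier and K2P background families hold the resting potential. In glioma cells, calcium-activated potassium channels have been studied for their part in cell volume change and migration.

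The promoters of 4 genes on which the results turn are shown first, from 250 bases before to 50 bases after a transcript start given by RefSeq (GRCh38.p14, all on the minus strand, written 5′ to 3′ along the gene). KCNG4 had the largest fold change of the tested channel genes, CACNA1A and CACNB4 are calcium channel genes that were higher in soft gel, and KCNH1 was lower in soft gel. The windows are chr16:84239963-84240262 for KCNG4, chr19:13506430-13506729 for CACNA1A, chr2:152099118-152099417 for CACNB4 and chr1:211134099-211134398 for KCNH1.
KCNG4: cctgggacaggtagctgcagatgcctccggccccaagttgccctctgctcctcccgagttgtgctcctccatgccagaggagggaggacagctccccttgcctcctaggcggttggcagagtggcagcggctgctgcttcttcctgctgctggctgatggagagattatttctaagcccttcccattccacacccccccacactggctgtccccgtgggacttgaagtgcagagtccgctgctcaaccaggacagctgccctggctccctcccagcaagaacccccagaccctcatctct
CACNA1A: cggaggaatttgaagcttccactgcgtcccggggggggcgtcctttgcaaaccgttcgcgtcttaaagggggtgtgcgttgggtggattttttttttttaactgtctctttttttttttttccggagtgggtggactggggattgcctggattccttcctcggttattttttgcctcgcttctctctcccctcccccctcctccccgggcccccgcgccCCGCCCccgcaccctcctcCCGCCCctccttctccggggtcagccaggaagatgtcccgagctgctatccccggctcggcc
CACNB4: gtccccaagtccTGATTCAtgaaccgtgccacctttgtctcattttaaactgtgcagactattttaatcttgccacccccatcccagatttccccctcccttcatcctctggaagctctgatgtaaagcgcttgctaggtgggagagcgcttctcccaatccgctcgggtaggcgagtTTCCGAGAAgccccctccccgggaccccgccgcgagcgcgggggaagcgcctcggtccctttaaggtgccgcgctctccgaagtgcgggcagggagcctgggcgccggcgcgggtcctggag
KCNH1: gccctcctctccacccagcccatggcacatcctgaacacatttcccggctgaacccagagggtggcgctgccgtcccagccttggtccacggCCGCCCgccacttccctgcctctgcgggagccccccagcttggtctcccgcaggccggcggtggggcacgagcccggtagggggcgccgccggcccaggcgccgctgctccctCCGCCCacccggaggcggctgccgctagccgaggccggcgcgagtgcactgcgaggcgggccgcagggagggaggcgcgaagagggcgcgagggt
Capitals mark letters that matched 1 of 3 motifs searched on both strands: the AP-1 motif TGANTCA, the STAT motif TTCNNNGAA and the GC-box GGGCGG, which reads CCGCCC on the other strand. CACNA1A had GC-boxes 31 and 12 bases before the start, KCNH1 had them 158 and 45 bases before it, and CACNB4 had an AP-1 match 238 bases and a STAT match 72 bases before it. CACNB4 has 5 windows in RefSeq, and the 1 shown is the only one of them with an AP-1 match; 2 of the 5 hold a STAT match and 2 others than the one shown hold GC-boxes. The other 3 genes have 1 window each, and none of the 3 motifs was in that of KCNG4. RefSeq promoters were found for 97 of the 135 genes, with 149 windows. The AP-1 motif was in 7.38% of these windows against 7.71% of all 35116 promoter windows, the STAT motif in 4.03% against 7.66%, and the GC-box in 52.3% against 45.0%. A match is a description of the letters and not a bound site.

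The libraries held 20911340 to 25901465 counts. Levels below are counts scaled by TMM to a common library size (CPM) for comparisons of a gene between groups, and the deposited length-scaled values (TPM) for comparisons between genes. Of the 16098 genes tested with edgeR's quasi-likelihood test, 28.6% were called at an adjusted p below 0.05, 15.4% higher and 13.2% lower in soft gel, and the median log2 fold change of all tested genes was 0.05. A positive fold change means higher in soft gel. In bulk RNA, fewer cells with a transcript and less RNA per cell cannot be told apart.

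Channel genes were mostly silent or low in these cells, and among those measured well enough to test, more were higher than lower in soft gel. Of the 135 genes, 18 had 0 counts in every library, 67 had counts but stayed below the filter, and 50 were tested. The call was higher in soft gel for 13 genes and lower for 5, which is 26% and 10% of the 50 against 15.4% and 13.2% of all tested genes. The change was at least 2-fold for 8 genes called higher and 2 called lower, where 6.71% and 1.95% of all tested genes were. All 3 soft gel libraries lay above all 3 rigid dish libraries for 20 of the 50 genes and below them for 7, against 23.5% and 21.1% of all tested genes. The median log2 fold change of the 50 genes was 0.33. These shares describe the tested genes only. Of the 50, 8 reached the filter's level in every soft gel library but not in every rigid dish library, and 0 the other way round. A gene that passes through its high group is picked for a difference in that direction, whether or not it is then called.

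**Figure D1:**
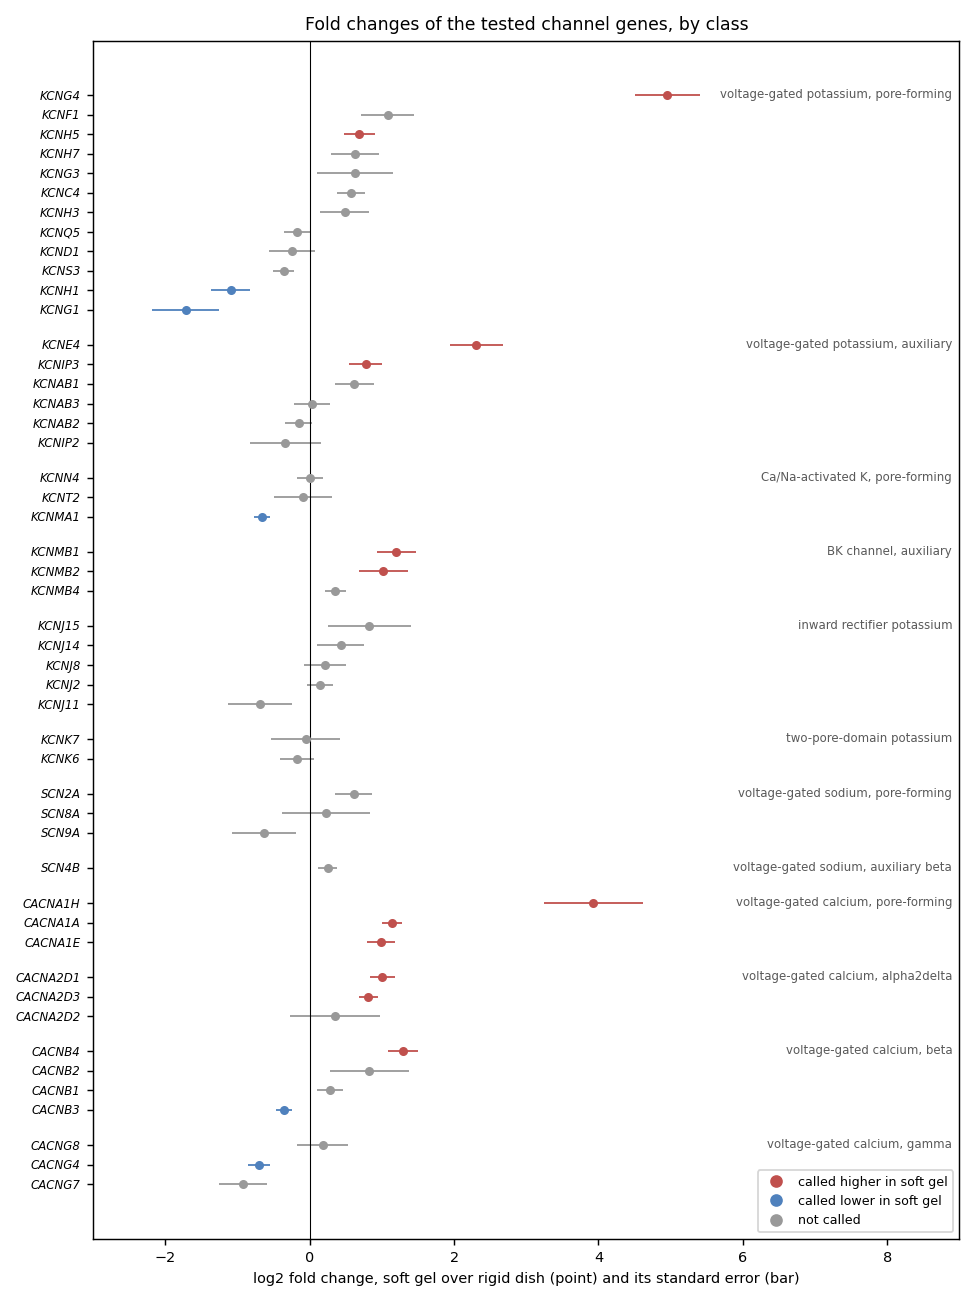
Log2 fold change of 48 of the 50 tested channel genes, soft gel over rigid dish (horizontal axis, points), with its standard error (bars), grouped into 12 classes from top to bottom. The calcium channel pore and alpha2delta genes lie to the right of 0, KCNG4 (4.95) and CACNA1H (3.93) lie farthest right, and KCNG1 (-1.72) lies farthest left.

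Of the 26 calcium channel genes 13 were tested, 6 were called higher in soft gel (46.2%) and 2 lower (15.4%), against 15.4% and 13.2% of all tested genes. The 32 tested potassium channel genes gave 6 higher (18.8%) and 3 lower (9.38%) calls. The 5 tested sodium channel genes gave 1 (20%) and 0. The difference between these kinds was not tested. The 3 tested pore genes, 2 of 3 tested alpha2delta genes and 1 of 4 beta genes were higher, and 1 beta and 1 of 3 tested gamma genes were lower. Among the pore genes, CACNA1H passed the filter through its soft gel libraries only, so its difference was built in. CACNA1A (chr19:13206442-13633025 on hg38), the pore of the P/Q-type channel that drives transmitter release at nerve endings, had 170.5, 209.8 and 173 CPM in soft gel, against 96.5, 73.3 and 81.8 CPM on the rigid dish. Every soft gel library was above every rigid dish library, with a log2 fold change of 1.14 (SE 0.139, adjusted p = 0.00115), a fold of 2.2. CACNA1E, the R-type pore, reached 6.96, 6.45 and 7.08 CPM in soft gel, against 3.85, 2.93 and 3.54 CPM on the rigid dish (log2 fold change 0.99, SE 0.192, adjusted p = 0.00693). The groups did not overlap.

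CACNA1H, a T-type pore that opens at low voltage, was found in soft gel and hardly on the rigid dish; its level lay under the limit of the naming rule, and it was chosen after its values were seen. It had 19, 16 and 15 counts in soft gel and 0, 1 and 2 counts on the rigid dish. The summed counts of 50 and 3 gave a ratio of 17.1 after scaling (95% exact counting interval 5.54 to 85.9), and edgeR's adjusted p was 0.00465. CACNA1H reached the filter's level in soft gel libraries only, so a difference was built in and the interval and p-value are no separate support. The fitted log2 fold change of 3.93 became 3.32 without rigid dish 1 and 4.76 without rigid dish 3. Over the 16 alternatives that tested CACNA1H it ran from 0.26 to 4.76, and the authors' deposited log2 fold was 1.42, so its size is uncertain. The other 7 pore genes were below the filter, and 2 of the 10 had no count in any library.

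The alpha2delta subunits, extracellular proteins that help carry the pore to the membrane, CACNA2D1 being a target of gabapentin, were higher too for 2 of the 3 genes tested. CACNA2D1 had 66.9, 69.5 and 44.9 CPM in soft gel, against 33, 29.5 and 28 CPM on the rigid dish, a log2 fold change of 1.00 (SE 0.172, adjusted p = 0.00423). Soft gel 3 was the lowest of its group and still lay above the rigid dish libraries. CACNA2D3 had 33.1, 27.2 and 31.1 CPM in soft gel and 17.9, 16.7 and 17.5 CPM on the rigid dish, with a log2 fold change of 0.81 (SE 0.129, adjusted p = 0.0033). Its rigid dish libraries lay close together and all below the soft gel libraries. CACNA2D2 was near the filter and not called (adjusted p = 0.699).

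The beta subunits, which sit on the inner face of the pore and control its transport and gating, went in opposite directions. CACNB4 (chr2:151832768-152099475) had 56, 60.4 and 34 CPM in soft gel, against 23.2, 20.2 and 18 CPM on the rigid dish (log2 fold change 1.29, SE 0.212, adjusted p = 0.00363). As for CACNA2D1, soft gel 3 was the lowest soft gel library, and the groups did not overlap. CACNB3 had 26.9, 24.4 and 25.7 CPM in soft gel and 31.5, 32.9 and 34.4 CPM on the rigid dish, a smaller difference the other way (log2 fold change -0.36, SE 0.115, adjusted p = 0.0442). CACNB1 was not called, at 9.57 ± 1.67 CPM in soft gel and 7.88 ± 0.611 CPM on the rigid dish (means ± SD of 3; log2 fold change 0.28, edgeR adjusted p = 0.262). Of the gamma genes, CACNG4, which in brain also attaches to AMPA-type glutamate receptors, was lower, with 25.8, 22.2 and 22.5 CPM in soft gel, against 45.7, 34.9 and 34 CPM on the rigid dish (log2 fold change -0.70, SE 0.149, adjusted p = 0.0100).

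The direction of these calls held in each alternative run, but some calls rested on the choice of values. With limma on log2(TPM + 1), adjusted p was 0.132 for CACNA1A, 0.307 for CACNA1E, 0.124 for CACNA1H, 0.114 for CACNA2D1, 0.058 for CACNB4, 0.305 for CACNB3 and 0.125 for CACNG4, while CACNA2D3 kept its call (0.0248). On counts, CACNB3 lost its call in 7 alternatives, among them leaving out rigid dish 2 (adjusted p = 0.136) or 3 (0.0722), or soft gel 1 (0.113) or 2 (0.149). CACNG4 lost its call without soft gel 2 (adjusted p = 0.0527), and the other 6 kept theirs with any library left out. Among the 6 was CACNA1H, which passed the filter through its soft gel libraries only, so its kept call is no separate support.

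**Figure D2:**
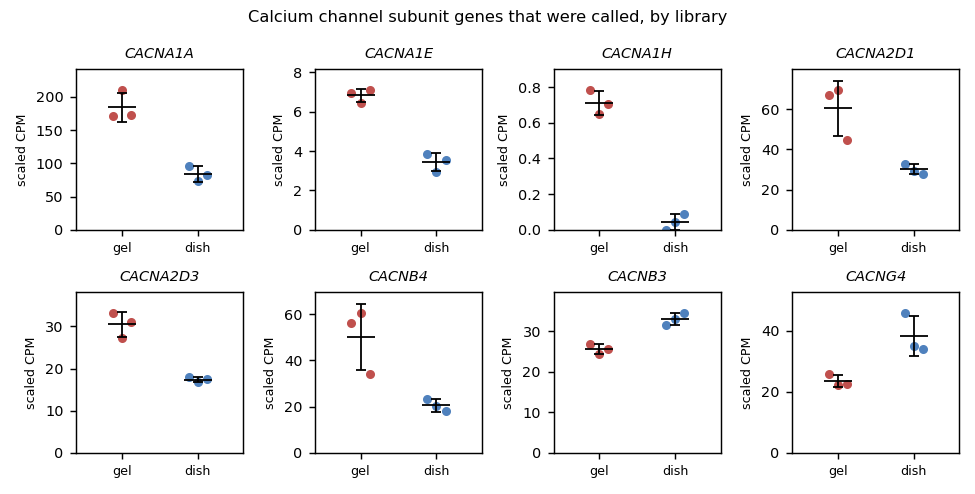
Scaled CPM (vertical axes, each from 0) of the 8 calcium channel genes that were called, in the 3 soft gel libraries (red, left) and the 3 rigid dish libraries (blue, right), with the mean (line) and SD (bar). CACNB3 and CACNG4 lie lower in soft gel, at up to 26.9 and 25.8 CPM, and the other 6 lie higher.

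Among the calcium-activated potassium channels the BK pore gene was lower in soft gel and 2 of its auxiliary genes were higher. KCNMA1 (chr10:76869601-77638369), the BK pore that opens with both calcium and voltage and the channel gene with the highest mean TPM here, had 101, 103 and 122 CPM in soft gel, against 179, 169 and 167 CPM on the rigid dish. The groups stood well apart, with a log2 fold change of -0.66 (SE 0.112, adjusted p = 0.00413). KCNMB1, the beta subunit that raises the calcium sensitivity of BK channels, had 4.45, 3.73 and 3.14 CPM in soft gel and 1.5, 1.38 and 2.06 CPM on the rigid dish (log2 fold change 1.20, SE 0.268, adjusted p = 0.0121). KCNMB2, whose end plugs and inactivates the pore, had 1.81, 2.23 and 1.69 CPM in soft gel and 1.27, 0.862 and 0.672 CPM on the rigid dish (log2 fold change 1.02, SE 0.338, adjusted p = 0.0497). Both were low and neither overlapped between the groups. KCNMB4, the beta subunit with the highest level, was at 24.3 ± 1.88 CPM in soft gel and 19 ± 2.49 CPM on the rigid dish and was not called (log2 fold change 0.35, edgeR adjusted p = 0.0902; n = 3 each).

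KCNN4, the intermediate-conductance calcium-activated channel, was the second gene by mean TPM and did not pass the test. It had 78, 65.1 and 76.9 CPM in soft gel and 53.8, 74.3 and 91.1 CPM on the rigid dish, and the soft gel values lay inside the rigid dish range (log2 fold change 0.0047, SE 0.182, adjusted p = 0.987). The call of KCNMA1 was lost with limma on TPM (adjusted p = 0.108 and 0.108 with pseudocounts of 1 and 0.1). That of KCNMB2 was lost in 12 of 18 alternatives, and that of KCNMB1 in 3, among them those that left out rigid dish 2 (KCNMB1 adjusted p = 0.0561) or soft gel 1 (0.0619). For KCNMB2 these included leaving out rigid dish 2 (0.148) or 3 (0.168), or soft gel 1 (0.117), 2 (0.171) or 3 (0.0712), with the adjusted p in brackets.

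Of the 40 pore genes of the voltage-gated potassium channels 13 were tested, 2 were called higher and 2 lower. That is 15.4% each way, close to the 15.4% and 13.2% of all tested genes. The called genes belonged to the ether-a-go-go (KCNH) and KCNG families, with a higher and a lower gene in each. In the ether-a-go-go family, KCNH5 had 10.8, 9.62 and 8.4 CPM in soft gel, against 7.56, 4.65 and 5.69 CPM on the rigid dish (log2 fold change 0.69, SE 0.213, adjusted p = 0.0401). KCNH1, studied as a growth-linked channel in tumours, had 21.7, 24.7 and 27.8 CPM in soft gel, against 29.4, 62.4 and 66.9 CPM on the rigid dish (log2 fold change -1.09, SE 0.271, adjusted p = 0.0179). Rigid dish 1 lay just above the soft gel libraries and far under the other rigid dish libraries. The KCNH1 call was lost with rigid dish 2 left out (adjusted p = 0.0699), and also with soft gel 1 (0.075) or 2 (0.0728) left out.

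In the KCNG family, whose products form no channel alone but join and modify other voltage-gated potassium channels, KCNG4 (chr16:84218667-84239750) was found mainly in soft gel. It had 79, 109 and 64 counts in soft gel, against 5, 1 and 2 counts on the rigid dish, or 3.25, 4.42 and 3.00 CPM in soft gel and 0.187, 0.0431 and 0.0896 CPM on the rigid dish. The ratio of the summed counts was 32.4 after scaling (95% exact counting interval 16.2 to 75.9), with a log2 fold change of 4.95 (SE 0.451, adjusted p = 0.000341). KCNG4 reached the filter's level in soft gel libraries only, so a difference was built in and the interval and p-value are no separate support. KCNG1 had 0.864, 1.54 and 1.31 CPM in soft gel, against 1.61, 5.21 and 5.51 CPM on the rigid dish (log2 fold change -1.72, SE 0.462, adjusted p = 0.024). As with KCNH1, rigid dish 1 lay close to the soft gel libraries. The call of KCNG1 was lost in 7 alternatives, including those that left out rigid dish 2 (adjusted p = 0.0864) or 3 (0.0584), or soft gel 1 (0.0915) or 2 (0.0667). The call of KCNH5 was lost in 7 alternatives (adjusted p = 0.149 and 0.126 with rigid dish 2 or 3 left out, 0.148 and 0.115 with soft gel 1 or 2 left out), while KCNG4 kept its call in all 18. The size of the KCNG4 change rested in part on rigid dish 1, which held 5 of the 8 rigid dish counts: the log2 fold change was 5.64 without it, and 1.25 to 5.84 over the 18 alternatives.

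KCNS3, another modifier of this kind and the voltage-gated potassium gene with the highest TPM, was not called. It had 25.3, 26.8 and 23.7 CPM in soft gel and 38.7, 28.6 and 29.8 CPM on the rigid dish (log2 fold change -0.36, SE 0.146, adjusted p = 0.0908). All soft gel values were below the lowest rigid dish value, and the call appeared with DESeq2 (adjusted p = 0.0496) and once the trend with gene span was removed (0.00997).

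Of the auxiliary genes of voltage-gated potassium channels, 6 of 12 were tested, 2 were called higher (33.3% of those tested) and 0 lower. The shares of all tested genes were 15.4% and 13.2%. KCNE4, a single-span protein that inhibits KCNQ channels, had 1.89, 2.03 and 1.64 CPM in soft gel, against 0.486, 0.258 and 0.358 CPM on the rigid dish, which is the third largest change of the channel genes (log2 fold change 2.31, SE 0.369, adjusted p = 0.00329). The groups did not overlap, and the call held in all 18 alternatives. KCNE4 reached the filter's level in every soft gel library but not in every rigid dish library. It passed through its high group, so a difference was built in and these results are no separate support. KCNIP3, a calcium-binding protein that joins KCND channels and is also known as a transcription repressor, had 5.02, 5.48 and 6.33 CPM in soft gel and 3.41, 2.54 and 3.9 CPM on the rigid dish (log2 fold change 0.77, SE 0.225, adjusted p = 0.0317). Its call was lost in 7 alternatives, among them when rigid dish 2 (adjusted p = 0.123) or any of the soft gel libraries (0.0741, 0.0936 and 0.091) was left out. KCNAB2, a beta subunit related to oxidoreductases, was not called (log2 fold change -0.15, adjusted p = 0.556).

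**Figure D3:**
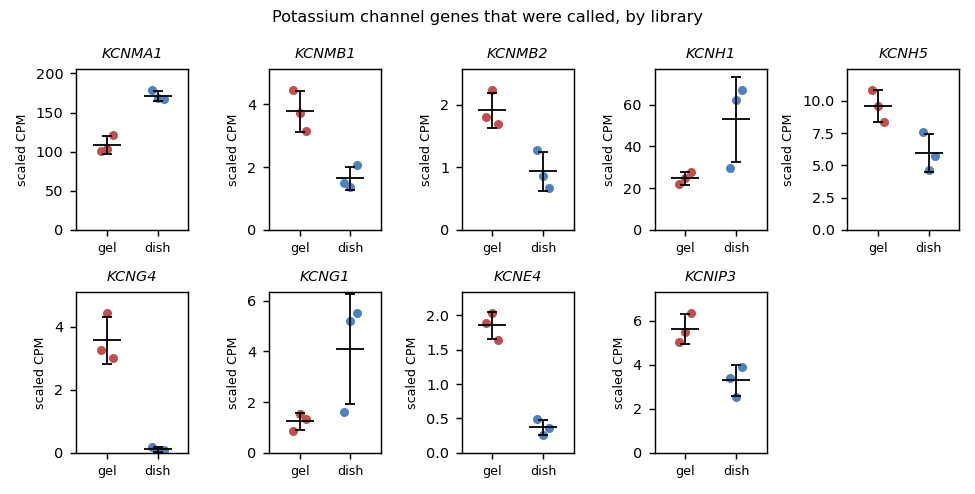
Scaled CPM (vertical axes, each from 0) of the 9 potassium channel genes that were called, in the 3 soft gel libraries (red, left) and the 3 rigid dish libraries (blue, right), with the mean (line) and SD (bar). Rigid dish 1 is the low blue point of KCNH1 (29.4 CPM) and KCNG1 (1.61 CPM), and the KCNG4 rigid dish points lie at 0.04 to 0.19 CPM.

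No inward rectifier or K2P gene was called. Of 16 inward rectifier genes 5 were tested, and KCNJ2, the pore of the classical strong rectifier, was the highest, with 27.6, 27.4 and 25 CPM in soft gel and 30.2, 23.6 and 18.7 CPM on the rigid dish (log2 fold change 0.14, SE 0.175, adjusted p = 0.561). The soft gel values lay inside the rigid dish range. Of 15 K2P genes 2 were tested and 5 had no count in any library. KCNK6 had 2.51, 3.69 and 3.99 CPM in soft gel and 4.08, 3.49 and 3.94 CPM on the rigid dish (log2 fold change -0.18, adjusted p = 0.597), with overlapping groups.

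The sodium channels gave 1 call in 5 tested of 14. The beta subunit gene SCN4B was not called, at 17.3, 16.6 and 18.2 CPM in soft gel and 14, 14.2 and 15.6 CPM on the rigid dish (adjusted p = 0.173). Among the pore genes, SCN9A, best known from pain-sensing neurons, had 7.49, 11.8 and 8.59 CPM in soft gel and 4.79, 20.5 and 18.2 CPM on the rigid dish. Rigid dish 1 was again the low one, below every soft gel library, and the gene was not called (adjusted p = 0.295); it was named after its values were seen.

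By TPM, a level per length, 3 genes stood above the rest: KCNMA1 at 57.9 ± 9.01 TPM in soft gel and 76.5 ± 10.7 TPM on the rigid dish, KCNN4 at 61.8 ± 5.6 TPM in soft gel and 57.6 ± 5.63 TPM on the dish, and CACNA1A at 71.7 ± 15.1 TPM in soft gel and 40.1 ± 29 TPM on the dish (means ± SD of 3 libraries). Means over all 6 libraries were 67.2, 59.7 and 55.9 TPM, and their order is not separated beyond these spreads. CACNB3 (22.8 TPM), KCNS3 (19.5), CACNA2D3 (15.4), CACNG4 (12.3) and CACNB4 (10.5) were among those that followed, and 18 of the 135 genes had a mean of 5 TPM or more. Summed TPM of all 135 genes was 464.2, 411.3 and 429.0 in soft gel and 438.8, 318.5 and 315.1 on the rigid dish, and summed CPM was 810.0, 843.4 and 787.1 in soft gel and 721.1, 708.4 and 738.0 on the rigid dish. By CPM the groups did not overlap, whereas by TPM rigid dish 1 lay inside the soft gel range.

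TPM and counts disagreed for some genes and the length behind a TPM value differed by library. CACNA1A had 73.6, 23.4 and 23.3 TPM on the rigid dish for 2579, 1701 and 1826 counts, which implies 2474 bases in rigid dish 1 against 4979 and 5162 bases in the other 2, and 4143 to 4915 bases in soft gel. KCNAB2 had 34.2, 4.39 and 5.21 TPM in soft gel for 135, 120 and 113 counts, with an implied 294 bases in soft gel 1. SCN10A was listed at 30.6, 3.78 and 12.7 TPM in soft gel and 0, 0 and 5.82 TPM on the rigid dish, from 6, 1 and 3 counts in soft gel and 0, 0 and 1 counts on the rigid dish, so its place among the 18 genes rests on 11 counts in all. Counts were used for the tests.

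Within families of close relatives, chosen after the values were seen, the makeup differed between the cultures. CACNB4 made up 33.1 ± 6.5% of the TPM of the 4 beta genes in soft gel and 17.3 ± 5.39% on the rigid dish, and CACNB3 47.8 ± 2.31% in soft gel and 70.3 ± 6.86% on the rigid dish (SD, n = 3 each). Neither share overlapped between groups. KCNG4 made up 45.3 ± 2.14% of the KCNG genes in soft gel and 2.39 ± 3.49% on the rigid dish, and KCNG1 39.4 ± 9.34% in soft gel and 88.5 ± 12.4% on the rigid dish, also without overlap. KCNG4 passed the filter through its soft gel libraries only, so this difference was built in and its shares are no separate support. The KCNG1 share falls where the KCNG4 share rises, so it is not a separate result. From CPM per kb of deposited length, the shares of CACNB4 were 33.9 ± 7.67% in soft gel and 15.4 ± 2.27% on the rigid dish, and those of KCNG4 43.2 ± 0.891% in soft gel and 1.55 ± 1.83% on the rigid dish. KCNMB4 held most of the BK beta genes in both cultures, 64.9 ± 8.87% in soft gel and 76.4 ± 3.10% on the rigid dish. CACNA1A held 98.0 ± 0.476% of the TPM of the 10 calcium pore genes in soft gel and 97.0 ± 2.15% on the rigid dish. The shares of CACNA2D1 and CACNA2D3 overlapped between the cultures.

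**Figure D4:**
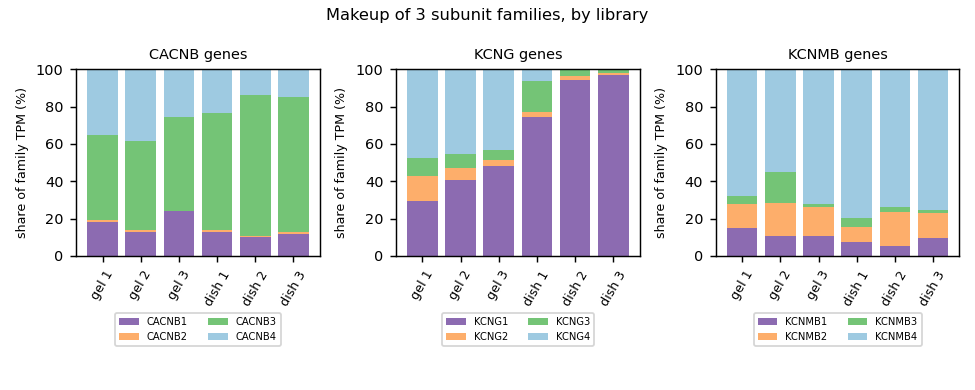
Share of the summed TPM of a family (vertical axis, percent) held by each of its genes, in stacked bars for the 3 soft gel libraries (left) and the 3 rigid dish libraries (right), for the CACNB, KCNG and KCNMB families. The KCNG4 part spans 43.2% to 47.4% in soft gel and 0.263% to 6.42% on the rigid dish, and the CACNB4 part is larger in soft gel. The KCNG4 difference was built in, as the gene passed the filter through its soft gel libraries only.

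The 85 genes below the filter had at most 23 counts in any library. Together they summed to 10, 8.16 and 9.43 CPM in soft gel and 6.44, 5.77 and 5.78 CPM on the rigid dish. Olfactory receptor genes, which these cells are not known to use, summed over 405 genes to 17.8, 22.0 and 15.9 CPM in soft gel and 11.7, 9.91 and 8.38 CPM on the rigid dish, so low background counts were also higher in soft gel. Of the 135 channel genes 50 were at or below the olfactory count per kb, and 0 of these were tested. The lowest called gene, CACNA1H, lay 2.08 times above it. KCNN4, KCNMA1 and CACNA1A lay 1702, 1606 and 732 times above it. By count per kb of deposited length CACNA1A thus stood well below KCNN4 and KCNMA1, unlike by TPM. With the olfactory count per kb subtracted, 11 genes were called higher and 5 lower; KCNMB2 lost its call (adjusted p = 0.0558) and CACNA1H fell below the filter.

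Several channel genes are very long, and long genes were called higher more often. Among tested protein-coding genes, 11.5% of those spanning under 20 kb and 27.0% of the 366 spanning 400 kb or more were called higher, with median log2 fold changes of -0.09 and 0.21. Of the 13 tested channel genes spanning 400 kb or more, 6 were called higher (46.2%) and 2 lower (15.4%), with a median of 0.69. Among protein-coding genes of that span, 10.7% were called lower. After removal of the trend with span in each library, 10 channel genes were called higher and 6 lower, and CACNA1A (log2 fold change 0.91), CACNA1E (0.76), CACNA2D1 (0.75) and CACNA2D3 (0.52) kept their calls. The log2 fold changes of KCNMB2 (0.77, adjusted p = 0.0972), KCNH5 (0.46, adjusted p = 0.0999) and KCNIP3 (0.66, adjusted p = 0.0626) stayed positive, and their calls were lost.

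**Figure D5:**
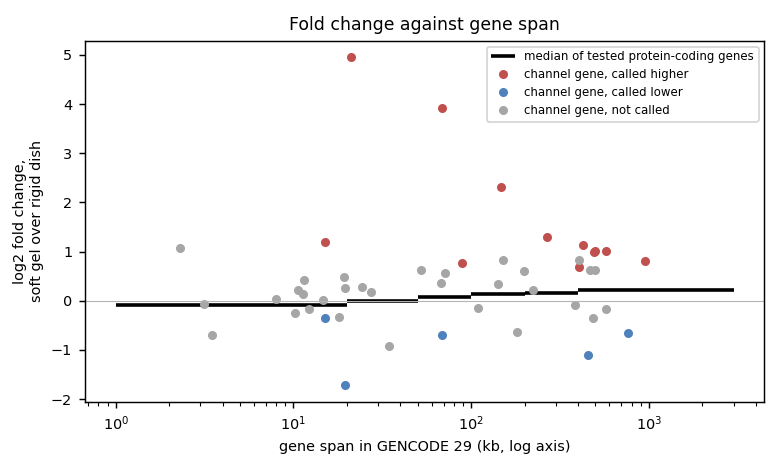
Log2 fold change, soft gel over rigid dish (vertical axis), of 48 of the 50 tested channel genes against the span of the gene in kb (horizontal log axis), with black lines at the median of tested protein-coding genes in each of 6 span ranges. The lines climb by a small step to 0.21 at the longest range, and most genes called higher (red) lie well above them.

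The sources used here give no strand setting of the counts, so reads of overlapping genes cannot be told apart. Of the 18 called genes 9 share exon bases with another annotated gene. For KCNH1 the antisense gene AC096636.1 had 184, 241 and 153 counts in soft gel and 230, 389 and 345 on the rigid dish, 28.3% of the KCNH1 counts, and the split between them is uncertain. For the other 8 the partner genes held at most 1.62% of the counts of the called gene.

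The authors' deposited table marked 8 of the 135 genes as significant, 6 up and 2 down in soft gel. They were CACNA1A, CACNA1H, CACNB4, KCNE4, KCNG4 and SCN3B up, and KCNG1 and KCNH1 down. Each of these 8 had an absolute deposited log2 fold above 1. CACNA2D1 (0.89) and KCNMA1 (-0.69) had a deposited adjusted p below 0.05 and were not marked. The mark is thus stricter than the calls made here on adjusted p alone. The deposited log2 folds of KCNG4 (3.20) and CACNA1H (1.42) were smaller than those fitted here. An adjusted p below 0.05 was given there, in the authors' deposited table, to 20 of the genes, of which 17 were also called here, and all 18 genes called here had the same direction there. SCN3B, a sodium channel beta subunit, had 8, 19 and 19 counts in soft gel and 0, 4 and 2 on the rigid dish and fell below the filter here.

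Genes that work with these channels were counted in 4 lists, to be read against the 15.4% of all tested genes called higher and the 13.2% called lower; differences between lists were not tested. Of 21 sodium, potassium and calcium pump and exchanger genes 16 were tested, 7 were called higher in soft gel (43.8%) and 0 lower. ATP1B1, a beta subunit gene of the sodium pump that sets up the gradients these channels use, averaged 175 ± 18.2 CPM in soft gel and 51.3 ± 11.1 CPM on the rigid dish (means ± SD of 3 libraries; log2 fold change 1.77, edgeR adjusted p = 0.000421).

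Of 35 channel partner genes 22 were tested, 5 were called higher (22.7%) and 3 lower (13.6%). GEM, a small GTPase that binds calcium channel beta subunits and lowers calcium current, averaged 169 ± 22.8 CPM in soft gel and 68.6 ± 5.26 CPM on the rigid dish (log2 fold change 1.30, edgeR adjusted p = 0.000495). AKAP5, a scaffold that holds kinases at calcium channels, was also higher (1.63, adjusted p = 0.0098). The calcium channel adaptor STAC (-0.54, adjusted p = 0.0322) and the calmodulin gene CALM2 (-0.52, adjusted p = 0.00949) were lower. Of 14 genes of calcium release and store entry 13 were tested, 3 were called higher (23.1%) and 1 lower (7.69%). The release channels ITPR1 (0.95, adjusted p = 0.00165) and RYR3 (1.17, adjusted p = 0.000888) were higher, and the mitochondrial uniporter MCU was lower (-0.50, adjusted p = 0.0181). Of 38 other cation and anion channel genes 31 were tested, 10 were called higher (32.3%), among them CLCN5 (1.13) and ASIC1 (1.00), and 4 lower (12.9%), among them the calcium-activated chloride channel ANO1 (-1.46) and the epithelial sodium channel gene SCNN1A (-1.35).

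Of 10 markers of a glioblastoma line 9 were tested. CD44 (0.33) and SOX2 (0.59) were called higher in soft gel, VIM (-0.48), NES (-0.56) and EGFR (-0.60) lower (log2 fold changes), and TNC was not called. The astrocyte markers GFAP (7 to 39 counts) and S100B (8 to 35), and CHI3L1 (6 to 16), were near the filter and not called, and OLIG2 had 0 counts in every library. Of 11 neuron markers 8 were tested, MAP2 was higher (0.76) and TUBB3 lower (-0.60), and their sum was 107 to 134 CPM in soft gel and 131 to 145 CPM on the rigid dish. SNAP25 (115 to 318 counts), NEFL (61 to 209), GAD1 (69 to 122), SYT1 (23 to 63), STMN2 (9 to 40) and NEFM (1 to 19) were tested and not called. SYP, RBFOX3 and SLC17A7 stayed at 12 counts or fewer. Of 9 muscle and heart markers 1 was tested, MYOG was at 0, and the sum of 8.96 to 11.1 CPM in soft gel and 6.98 to 12.3 CPM on the rigid dish came mostly from RYR2. Of 8 endothelial, immune and epithelial markers 1 was tested, CD68 (1.78), and their sum was 39.4 to 46.8 CPM in soft gel and 10.4 to 15.3 CPM on the rigid dish. The part of other cell states in the channel differences was not tested.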

How the data were processed

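DBTRG RNA was extracted with TRIzol and made into libraries with an Illumina TruSeq kit, per the labels' protocols. HISAT2, HTSeq and hg38 are named in the submitters' processing notes. The authors deposited estimated counts, some with decimals, and TPM for 58884 genes; the tool that gave decimals is named in no source used here. The authors' deposited comparison lists for each gene a fold (ratio), its log2, a p-value and its adjusted form. A further 2 deposited columns of group means were not used.

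Counts were rounded, filtered with filterByExpr (minimum count 10, or about 0.416 CPM in 3 libraries), scaled by TMM and tested with edgeR 4.0.16 (quasi-likelihood, limma 3.58.1, R 4.3.3), with Benjamini-Hochberg adjustment over all 16098 tested genes and a call at an adjusted p below 0.05. A 2-fold change means an absolute log2 fold change of 1 or more, and SEs come from the test statistic. Library totals of 20911340 to 25901465 make 3 counts, the limit a count of 0 allows, equal to 0.112 to 0.141 CPM; limits and counting intervals cover counting error only. Positions come from GENCODE 29.

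Members, lists and classes were chosen with earlier results of these data known. Named genes were those called with a mean of 0.5 CPM or more, the gene with the highest TPM of each class, and uncalled genes at 5 TPM or more; of other lists, up to 2 higher and 2 lower genes at 5 CPM or more. Some genes under this rule are not reported here. Genes named beyond it were chosen after their values were seen. The pipeline was tested on simulated data. Alternatives were DESeq2 1.42.0 and its size factors, upper quartile factors, no filter, 1 CPM in 3 libraries, a replicate block, each library left out, only protein-coding genes, limma-voom, limma on log2 TPM with pseudocounts of 1 and 0.1, and olfactory background subtracted; removal of the trend with gene span was added after seeing the data. Figures were drawn with matplotlib 3.10.9.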

Additional observations from a re-analysis of the deposited data

How the results depend on the processing

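Of the 18 called genes, KCNG4, KCNE4 and CACNA2D3 kept their call in all 18 alternatives, 9 kept it with any single library left out, and none changed direction. KCNG4, KCNE4 and CACNA1H, all among these 9, passed the filter through their soft gel libraries, so a kept call is no separate support for them. The 13 higher and 5 lower calls became 5 and 1 with limma on log2(TPM + 0.1), with 3 calls of at least 2-fold and 2287 genes called in all, and 6 and 1 with limma on log2(TPM + 1), with 1 call of at least 2-fold and 2313 genes in all; the cause was not tested. The other alternatives that kept all libraries gave 10 to 15 higher and 4 to 6 lower calls. Leaving out 1 library gave 9 to 17 higher and 1 to 6 lower calls, 6 to 14 of at least 2-fold (10 with all libraries), a median of 0.27 to 0.50 and 1803 to 6164 genes called in all (4603 with all libraries). Lower calls were 2 and 3 with rigid dish 2 and 3 left out, and 2 and 1 with soft gel 1 and 2 left out; calls of at least 2-fold were 6 with either rigid dish 2 or soft gel 1 left out; genes called in all were 2026, 1963 and 1803 with rigid dish 2, soft gel 1 and soft gel 2 left out in turn. KCNMB4 was called without rigid dish 1 (adjusted p = 0.0317). Some uncalled genes changed sign: KCNJ2 to -0.080 without rigid dish 3 (range -0.080 to 0.33 over the libraries left out), KCNAB2 to 1.24 and 1.12 and KCNK6 to 0.35 and 0.20 with limma on log2(TPM + 0.1) and log2(TPM + 1), and KCNN4 to -0.037 with DESeq2 and with its size factors, -0.056 with no filter, and -0.18 to 0.13 over the libraries left out (below 0 with rigid dish 1, or with soft gel 1 or 3, left out). The log2 ratio of summed levels moved with CPM in place of TPM for calcium- or sodium-activated potassium pores (-0.42 by CPM, -0.16 by TPM), voltage-gated potassium auxiliary genes (0.35, 1.55), voltage-gated potassium pores (-0.37, -0.13), sodium beta genes (0.42, 0.52) and sodium pores (-0.26, 1.68). For the other 7 classes it moved by less than the spread between libraries, though the sign changed for inward rectifiers (0.16, -0.46), whose TPM in rigid dish 1 stood apart (31.7 TPM, against 7.11 and 8.71 in the other rigid dish libraries). There KCNJ10 held 17.0 TPM from 20 counts, an implied 83.2 bases. Of the mean TPM of sodium pores, SCN10A held 15.7 of 19.3 in soft gel and 1.94 of 6.01 on the rigid dish, from 11 counts in all. KCNAB2 held 14.6 of 42.0 TPM of the voltage-gated potassium auxiliary genes in soft gel and 3.88 of 14.4 TPM on the rigid dish. The causes were not tested. The labels number the libraries 1 to 3 in both groups but do not call them pairs, so the numbers were not taken as pairs. The deviations of same-numbered libraries correlated at 0.217, 0.00912 and 0.307, and those of differently numbered libraries at -0.295 to 0.137. Whether the numbers mark pairs was not tested. With a replicate block 15 genes were called higher and 5 lower, 10 at least 2-fold, with a median of 0.39 and 6442 genes called in all. Genes below the filter had at most 23 counts in a library, so depth limits what can be said of them.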
